A study of Gallus gallus with 6 samples.

Results

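Endothelial cells, the cells that line blood vessels, were picked out of 6 single-cell RNA-seq libraries of early chicken embryos, 3 from the frontonasal prominence and 3 from the somite region. A cell barcode, the sequence tag that marks the RNA of a droplet, was taken as endothelial where it held at least 1 UMI (unique molecular identifier, a captured transcript counted once) of 2 or more of the 5 genes CDH5, EGFL7, SOX18, CD34 and RAMP2, and where haemoglobin genes made up less than 20% of its UMIs. This rule found 210 endothelial barcodes among 17268 (1.22%), of which 49 came from nasal tissue and 161 from somite tissue. The frontonasal prominence, the tissue that forms the midface and nose, was taken at HH15, HH18 and HH22, stages of the Hamburger and Hamilton series. Somite libraries came from dorsal tissue at brachial level, taken at HH12, HH15 and HH20. All embryos were untreated "Hubbard" chickens of both sexes, no allele or agent is named for any group, and each stage is a single library. The paper states that the tissue of each sample was pooled from multiple embryos of a single stage, without giving their number. The 3 stages stood as the replicates of a location, and the spread between them includes the change with stage. Only HH15 was sampled in both locations, and location cannot be told apart from anything else that differed between the 3 nasal and the 3 somite libraries.

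The first vessels form as mesodermal precursors, the angioblasts, assemble into tubes, and new branches then sprout from them. Vascular endothelial growth factor (VEGF) acts on endothelial cells through the receptors KDR and FLT1, and its relative VEGFC acts through FLT4. Transcription factors of the ETS family, together with LMO2, TAL1 and HHEX, set up the endothelial programme, and Notch signals with ephrins separate arteries from veins. The genes of the rule belong to the same programme. CDH5 (VE-cadherin, ENSGALG00000032349) joins endothelial cells to each other, EGFL7 (ENSGALG00000043499) is a secreted factor of the vessel wall, SOX18 (ENSGALG00000034118) is a transcription factor, CD34 (ENSGALG00000001177) is a surface sialomucin and RAMP2 (ENSGALG00000024449) is the co-receptor through which adrenomedullin signals.

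The libraries held 1420 to 4760 barcodes each, with median UMI counts of 2233 to 3473.5 per barcode. The endothelial barcodes had median UMI counts of 2012.5 to 4065 per library, close to those of the other barcodes (2228.5 to 3472). The median mitochondrial share of UMIs was lower in the endothelial barcodes in 6 of 6 libraries, at 0.452% to 3.10% against 3.39% to 4.52%, and its part in the results below was not tested. Of the barcode sequences, 169 occurred in more than 1 library, 4 of them on endothelial barcodes. Among the 210 endothelial barcodes, 11 failed the study's stated quality filters and 7 lay among the 452 barcodes with the highest doublet scores. No endothelial barcode came near the haemoglobin limit, the highest share being 1.55%.

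The label was set beside endothelial genes that the rule did not use. They were listed with earlier results of these data known and vary with the rule genes, so their shares are a description and no independent check. Of 36 such genes listed, 26 were in the files, among them the receptors KDR, FLT1, FLT4 and TEK and the junction gene CLDN5 (spelled cldn5 in the files). Of the barcodes just inside the threshold, with 2 rule genes, 83.7% (87 of 104) held at least 1 UMI of these 26 genes. Of those just outside it, with 1 rule gene, 25.8% (207 of 802) did, against 20.8% of the 15662 barcodes with none. At least 2 of the 26 genes were held by 8.35% with 1 rule gene and 3.19% with none. Their summed level was 1518 CPM (UMIs per 1000000 UMIs of the summed barcodes) with 2 rule genes, 154 CPM with 1 and 83.0 CPM with none, and it reached 2340 CPM in the 11 barcodes with all 5. The step in the plot by number of rule genes thus lay between 1 and 2. In all, 192 of the 210 endothelial barcodes (91.4%) carried at least 1 of the 26 genes.

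**Figure D1:**
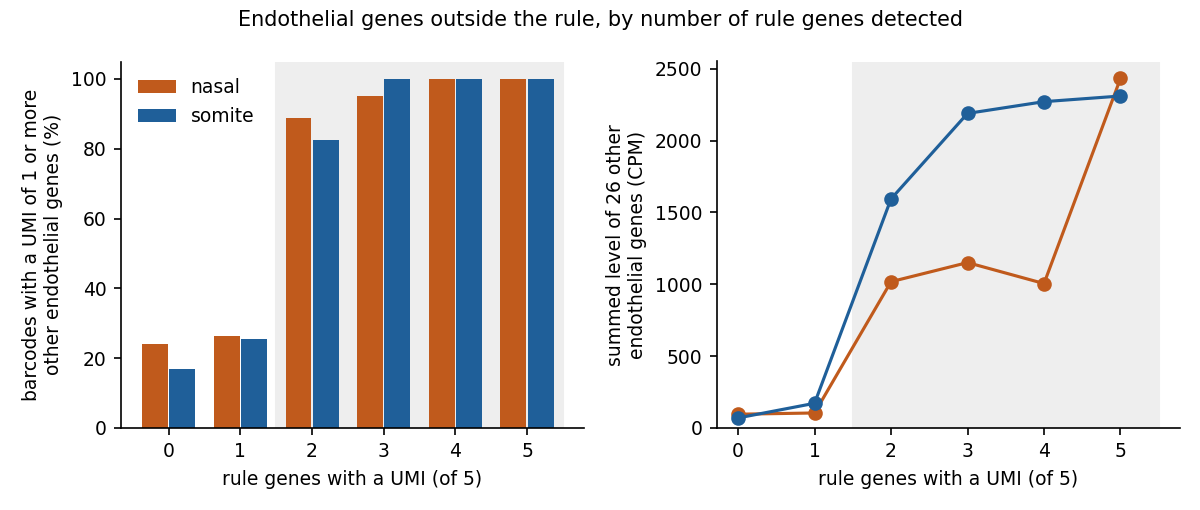
Share of barcodes with a UMI of at least 1 of 26 endothelial genes outside the rule (left, percent) and their summed level (right, CPM), against the number of rule genes detected (0 to 5), for nasal and somite barcodes. The grey area marks the endothelial barcodes. In nasal tissue the share went from 26.4% with 1 rule gene to 88.9% with 2, and in somite tissue from 25.6% to 82.6%.

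The 18 endothelial barcodes with none of the 26 genes came mostly from somite HH12, which also held the most endothelial barcodes. They were 11 of the 87 endothelial barcodes of somite HH12, 2 of 55 at HH15 and 2 of 19 at HH20. In nasal tissue they were 1 of 14 at HH15, 2 of 24 at HH18 and 0 of 11 at HH22. Genes of sclerotome and dermomyotome, the parts of the somite that give skeleton, muscle and dermis, summed to 894 CPM in the 15 somite ones, against 174 CPM in the other 146 somite endothelial barcodes and 568 CPM in the non-endothelial somite barcodes. By stage, those non-endothelial barcodes held 912 CPM at HH12, 336 CPM at HH15 and 263 CPM at HH20. The mesenchyme list lay at 213 CPM in these 15, against 51.3 CPM and 488 CPM.

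Among the genes of the rule, given here as a description, SOX18 was detected in 62.9% of the endothelial barcodes, EGFL7 in 61.4%, RAMP2 in 59.5%, CD34 in 45.7% and CDH5 in 44.8%. In all other barcodes these shares lay between 0.164% (CDH5) and 2.85% (EGFL7). RAMP2 varied most between the somite stages, at 179, 518 and 1219 CPM at HH12, HH15 and HH20. In the nasal libraries it lay at 454, 427 and 436 CPM at HH15, HH18 and HH22. CDH5 ranged from 64.6 to 205 CPM in the nasal and from 182 to 275 CPM in the somite libraries, so that 1 nasal library, HH22, stood below all others.

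Endothelial barcodes made up a smaller share of nasal than of somite tissue at the stages sampled. In nasal tissue the share was 0.495% at HH15 (14 of 2826, 95% exact Clopper-Pearson interval 0.271% to 0.830%), 0.504% at HH18 (24 of 4760, 0.323% to 0.749%) and 0.775% at HH22 (11 of 1420, 0.387% to 1.38%). In somite tissue it was 2.72% at HH12 (87 of 3193, 2.19% to 3.35%), 1.72% at HH15 (55 of 3191, 1.30% to 2.24%) and 1.01% at HH20 (19 of 1878, 0.610% to 1.58%). All 3 nasal libraries lay below all 3 somite libraries, although the interval of somite HH20 overlapped those of all 3 nasal libraries and that of somite HH15 overlapped that of nasal HH22. The mean was 0.591% ± 0.159 (SD, n = 3) in nasal and 1.82% ± 0.861 (SD, n = 3) in somite tissue. The difference of -1.23 percentage points gave p = 0.1 in a two-sided exact permutation test over libraries, the smallest p that 3 against 3 can give. With every barcode thinned to 1500 UMIs the means were 0.377% and 0.966%, again without overlap. At the shared stage, HH15, the shares were 0.495% and 1.72%. The intervals cover counting error only, and the share of a cell type after trypsin dissociation need not be its share in the tissue.

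**Figure D2:**
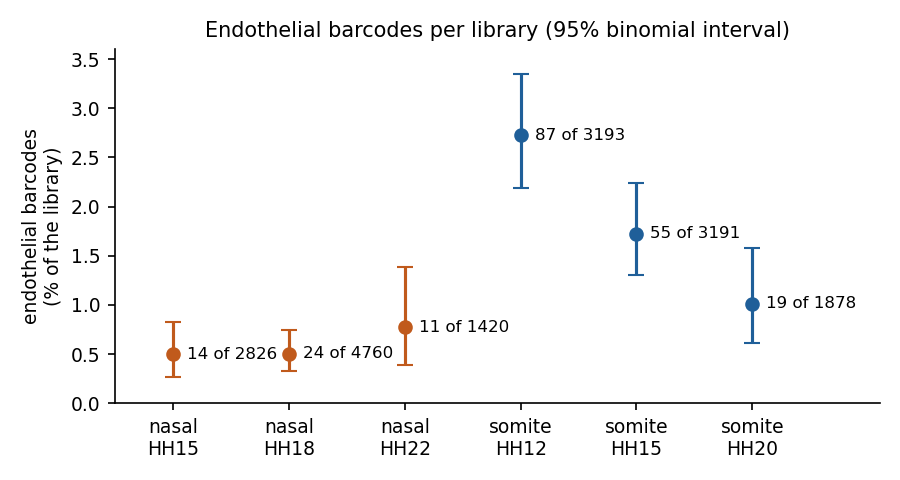
Endothelial barcodes as a percentage of all barcodes in each of the 6 libraries, with 95% exact binomial intervals. The nasal libraries sit between 0.495% and 0.775%, and the somite libraries fall from 2.72% at HH12 to 1.01% at HH20.

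To see what else set these barcodes apart, their summed counts were compared with those of all other barcodes of the same library in edgeR, without the rule genes and the haemoglobin genes. The other genes were measured in cells chosen by 5 genes of the same programme, so genes that vary together with those 5 had to differ. Of 9160 genes tested, 503 (5.49%) differed in nasal endothelial barcodes at an adjusted p below 0.05, 238 of them higher (2.6%) and 265 lower (2.89%). In somite endothelial barcodes 522 (5.7%) differed, 374 of them higher (4.08%) and 148 lower (1.62%). Of the higher genes, 187 were called in both locations, which is 78.6% of the nasal and 50% of the somite list. Of the lower genes, 59 were called in both, 22.3% of the nasal and 39.9% of the somite list. The median log2 fold change over all genes was -0.55 in nasal and -0.12 in somite tissue (-0.39 and -0.16 with DESeq2 size factors), and fold changes are to be read against these. With those size factors the calls split 283 higher to 183 lower in nasal tissue and 379 to 223 in somite tissue.

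The 26 endothelial genes outside the rule summed to 1932, 1238 and 711 CPM in nasal HH15, HH18 and HH22, against 80.3, 106 and 145 CPM in the other barcodes. In the somite libraries they summed to 1904, 1982 and 1745 CPM at HH12, HH15 and HH20, against 76.5, 74.8 and 127 CPM. The nasal values fell with each later stage, while the somite values stayed within 1745 to 1982 CPM. Of the 20 genes tested, 14 were higher and none lower in nasal tissue (median log2 fold change 4.46), and all 20 were higher in somite tissue (median 4.47). As the list was drawn up with earlier results of these data known, and its genes vary with those of the rule, these counts describe the endothelial barcodes and are not independent evidence for them.

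Receptors for VEGF came first among the signalling genes. FLT4, the receptor of VEGFC, lay at 250, 128 and 16.1 CPM in nasal HH15, HH18 and HH22 and at 67.5, 145 and 59.8 CPM in somite HH12, HH15 and HH20, against at most 5.90 CPM in the other barcodes of any library. It was called in both locations (nasal log2 fold change 5.63 ± 0.63 SE, adjusted p = 1.7e-16; somite 4.64 ± 0.44, 5.7e-24). Nasal HH22 was the low library, resting on a single UMI. PLXND1, a semaphorin receptor of vessels, behaved likewise, at 205, 185 and 32.3 CPM in nasal and 83.8, 96.4 and 155 CPM in somite tissue (4.07 ± 0.54 and 4.75 ± 0.41). FLT1 was called in both locations at low levels, 0 to 45.4 CPM in nasal and 12 to 32.6 CPM in somite tissue. The nasal call of FLT1 was lost without the HH15 library (3.96) or the HH18 library (4.77), and its somite call without HH12 (3.35).

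KDR, the main VEGF receptor, was sparse in both locations. It lay at 32.6, 30.1 and 23.9 CPM in the somite libraries, where it was called (4.31 ± 0.66, adjusted p = 6.5e-09). In nasal tissue it lay at 22.7, 0 and 0 CPM and was not called (2.94, adjusted p = 0.45). The difference between the locations was not called either (adjusted p = 0.98). Of the VEGF list, 3 of 8 genes tested were higher in nasal and 4 in somite tissue, and none was lower. NRP1, NRP2 and VEGFC did not pass the test in either location. NRP2, a VEGFC co-receptor, lay at 59.8 to 169 CPM in somite endothelial and 84.4 to 145 CPM in the other somite barcodes. Its nasal mean was 25.3 CPM in endothelial and 48.8 CPM in the other barcodes. An NRP2 UMI was held by 6.12% of nasal and 32.9% of somite endothelial barcodes. The ligand VEGFA was below the test's count filter, at 0 CPM in nasal and at most 2.33 CPM in somite endothelial barcodes.

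Of the angiopoietin and bone morphogenetic protein pathways, the receptors ENG, ACVRL1 and TEK were called in both locations. ENG (endoglin), the co-receptor of ACVRL1, lay at 227, 128 and 64.6 CPM in nasal and 140, 223 and 239 CPM in somite tissue, with the other barcodes at 2.01 to 6.24 CPM (5.18 ± 0.58 and 5.0 ± 0.37, adjusted p = 2.2e-16 and 9.4e-39). The nasal levels decreased with stage and the somite levels increased, and the 2 ranges overlapped. The nasal levels rested on few barcodes, with ENG in 6 of 14, 6 of 24 and 4 of 11 (42.9%, 25% and 36.4%). Neither change with stage was tested. ACVRL1 itself was called in both locations (4.93 ± 0.99 and 4.70 ± 0.51). TEK, the angiopoietin receptor, was steady at 60.5, 54.2 and 59.8 CPM in somite tissue (5.63 ± 0.58) and lay at 45.4, 42.7 and 0 CPM in nasal tissue (5.07 ± 1.13), where the call was lost without HH18 (4.64). ID1, a target of the pathway, was higher only by the somite test (1.24 ± 0.27), a call lost without HH20 (0.81), and TGFB2 was lower there (-2.44 ± 0.67), a call lost without HH12 (-2.15) or HH15 (-2.50). Of 10 genes tested in this list, 3 were higher in nasal tissue, and 4 were higher and 1 lower in somite tissue.

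Among transcription factors of the endothelial programme, ETS1 lay at 454, 356 and 371 CPM in nasal and 803, 476 and 538 CPM in somite tissue, against 26.8 to 77.8 CPM in the other barcodes (3.26 ± 0.29 and 3.14 ± 0.23, adjusted p = 1.6e-25 and 7.4e-41). LMO2, the bridging factor of the TAL1 complex, lay at 250, 256 and 145 CPM in nasal and 610, 452 and 287 CPM in somite tissue, against at most 21.2 CPM elsewhere (4.21 ± 0.41 and 5.03 ± 0.28). Every nasal value of both genes lay below every somite value. In the direct comparison of locations neither difference was called (ETS1 -0.63 ± 0.27, adjusted p = 0.68; LMO2 -1.05 ± 0.32, adjusted p = 0.29).

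HHEX, a homeobox factor of early endothelium, lay at 90.9, 99.6 and 64.6 CPM in nasal and 154, 223 and 95.6 CPM in somite tissue (4.17 ± 0.66 and 5.34 ± 0.39). ELK3 went the other way, with its lowest nasal value (291 CPM) above its highest somite value (271 CPM), and was not called between locations (0.52 ± 0.27, adjusted p = 0.77). TAL1, a factor of the common precursor of blood and endothelium, lay at 133, 54.2 and 23.9 CPM in somite HH12, HH15 and HH20. Its somite call (3.48 ± 0.44) was lost without HH12 (1.72). In nasal tissue TAL1 was found at HH15 only, with 4 UMIs (90.9 CPM). Of 18 factors tested, 7 were higher in nasal tissue (ERG, ELK3, ETS1, ETS2, EPAS1, HHEX and LMO2). In somite tissue 13 were higher, adding TAL1, FLI1, GATA2, ETV6, KLF2 and MECOM, and the somite gene MEOX1 was lower. ERG in nasal tissue (1.59 ± 0.51, adjusted p = 0.039) lost its call on leaving out any 1 of the 6 libraries (1.32 to 1.81), and EPAS1 lost it in nasal tissue without HH18 (2.68) and in somite tissue without HH20 (1.33). In somite tissue GATA2, ETV6 and MECOM each lost the call without HH12 (1.30, 1.75 and 1.75) or HH15 (1.68, 1.64 and 1.26), and MECOM also without HH20 (1.44).

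The genes with the largest fold changes were led in nasal tissue by KLHL4 (7.11 ± 0.69), CLDN5 (7.09 ± 0.71), RASGRP3 (6.63 ± 0.59), NOS3 (6.41 ± 0.78) and APOLD1 (6.32 ± 0.86). CLDN5 is the claudin of endothelial tight junctions and NOS3 makes nitric oxide in endothelium. RASGRP3 activates Ras-type GTPases. In somite tissue the leaders were GJA5 (6.71 ± 0.43), KLHL4 (6.23 ± 0.49), DIPK2B (6.11 ± 0.38), F2RL2 (6.02 ± 0.53) and MALL (6.02 ± 0.56). CLDN5 lay at 227, 114 and 16.1 CPM in nasal HH15, HH18 and HH22 and at 67.5, 108 and 155 CPM in somite HH12, HH15 and HH20. The nasal HH22 value is 1 UMI, with an exact Poisson interval of 0.409 to 89.97 CPM that lies below that of nasal HH15 (109 to 418 CPM). KLHL4 was more even, at 90.9, 171 and 80.7 CPM in nasal and 88.4, 114 and 83.7 CPM in somite tissue. DIPK2B lay at 159, 99.6 and 178 CPM in nasal and 221, 289 and 203 CPM in somite tissue, without overlap.

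**Figure D3:**
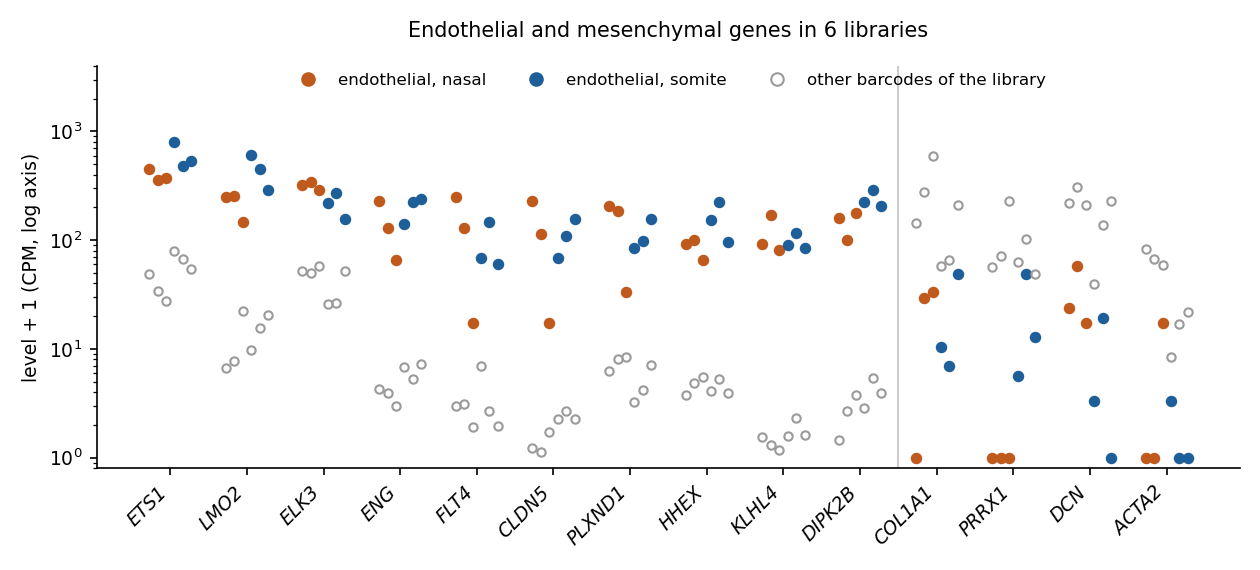
Level of 10 endothelial genes (left of the grey line) and of 4 mesenchymal or mural genes (right) in each library, as CPM plus 1 on a log axis. Filled points are endothelial barcodes in the order nasal HH15, HH18, HH22 and somite HH12, HH15, HH20, and open points are the other barcodes of the same library. ETS1 in endothelial barcodes lies at 356 to 803 CPM against 26.8 to 77.8 CPM, while PRRX1 is at 0 CPM in all 3 nasal endothelial sums.

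Arterial genes were found in both locations, with differences between single genes. GJA5 (connexin 40, ENSGALG00000039452), a gap junction protein of arterial endothelium, lay at 123, 108 and 347 CPM in somite HH12, HH15 and HH20 and at 0, 0 and 48.4 CPM in nasal HH15, HH18 and HH22. The 3 nasal UMIs all came from HH22, and without that library the nasal fold change was -0.26 in place of 4.89. That value was fitted on 0 endothelial UMIs and depends on the prior count. No nasal value overlapped the somite values. By counting error alone, the exact Poisson intervals of the somite libraries (92.4 to 161, 64.3 to 171 and 232 to 498 CPM) placed HH20 above HH12 and HH15. These UMIs came from 22 of 87, 9 of 55 and 6 of 19 barcodes (25.3%, 16.4% and 31.6%). The intervals do not cover the spread between barcodes, and the change with stage was not tested. With all counts kept in the direct comparison GJA5 was lower in nasal tissue (log2 fold change -2.67, adjusted p = 0.000397), whereas the count filter of that comparison otherwise left it out. Without the filter the whole fit changes, and RGS2, tested in both fits, was called only in the unfiltered one. The p-value of GJA5 is thus not that of the filtered test with this gene added.

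Of 17 genes tested in the Notch, ephrin and arterial list, 7 were higher in somite tissue (GJA5, GJA4, DLL4, HEY2, CXCR4, JAG2 and EFNB2) and 3 in nasal tissue (GJA5, GJA4 and DLL4). HEY2, a Notch target of arteries, lay at 51.2, 84.3 and 59.8 CPM in somite tissue (2.42 ± 0.43) and at 22.7, 0 and 16.1 CPM in nasal tissue. CXCR4, the receptor of CXCL12, lay at 48.9, 12 and 143 CPM in somite tissue (2.40 ± 0.45), and no UMI of it was found in the 49 nasal endothelial barcodes, which allows up to 6.12% of such barcodes to hold a UMI and sets no limit on the share of cells that express it. Its ligand CXCL12 was lower than in the other barcodes in both locations, a call lost without HH18 (-6.34) or HH22 (-6.72) in nasal tissue, where it had 0 UMIs and the fitted values depend on the prior count, and without HH12 (-2.58) or HH20 (-1.92) in somite tissue. The nasal calls of GJA4 (4.34 without HH22) and of DLL4 (4.19 to 4.49 on leaving out any nasal library) each rested on few UMIs. The somite call of DLL4 (2.76 to 3.13) and of EFNB2 (1.06 to 2.20) was lost on leaving out any somite library, and that of JAG2 without HH15 (1.55) or HH20 (1.19). The list summed to 500, 228 and 436 CPM in the endothelial barcodes of nasal HH15, HH18 and HH22. In those of somite HH12, HH15 and HH20 it summed to 573, 434 and 1171 CPM. The nasal sum was thus the higher one at the shared stage HH15, while the highest sums were those of somite HH20 and HH12. At nasal HH18 the list lay below the other barcodes (262 CPM). The difference in these sums was not tested. GJA4 was detected in 10.2% of nasal and 5.59% of somite endothelial barcodes. No gene of this list differed between the locations in the test of that difference.

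Venous, lymphatic and tip-cell genes were present in both locations. STAB2, a scavenger receptor of sinusoidal endothelium, lay at 65.2 and 90.4 CPM in somite HH12 and HH15, and at 0 CPM in HH20 (exact Poisson interval 0 to 44.1 CPM), a call of 5.68 ± 0.60. The HH20 interval overlapped only the lower edge of that of HH12 (43.3 to 94.2 CPM). OIT3, which the count filter left out, showed the same stages, at 81.5, 139 and 0 CPM, with 0 UMIs in the nasal endothelial barcodes. APLNR, the apelin receptor of venous and early endothelium, and its ligand APLN, a tip-cell gene, were higher in both locations. The nasal calls of APLNR (2.38 without HH15) and APLN (3.94 without HH15, 3.18 without HH18) each needed 1 or more single libraries, as did the somite call of APLN (3.98 without HH12). STAB1 in somite tissue was called on HH12 alone and was -0.71 without it, a value fitted on 0 UMIs that depends on the prior count. NR2F2, a factor of veins that mesenchyme also expresses, was at 64.6 to 142 CPM in nasal and 71.7 to 163 CPM in somite endothelial barcodes, against 129 to 252 CPM in the other barcodes. It did not pass in either location (-1.05, adjusted p = 0.088, and -0.73, adjusted p = 0.070) but passed as lower in 7 of 17 alternative settings in nasal and 9 of 17 in somite tissue. LYVE1 was found in 3 nasal endothelial barcodes and in none of the 161 somite ones. Of the tip-cell list, 3 of 6 tested genes were higher in nasal and 5 in somite tissue, where the call of PDGFB was lost without HH20 (2.57).

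Within the somite endothelial barcodes, several arterial and venous genes were detected in different shares of the barcodes with and without GJA5. Of the 161, 37 held a UMI of GJA5 and 124 did not, with median depths of 2905 and 3172 UMIs. GJA5 was held by 22 of 87 barcodes at HH12, 9 of 55 at HH15 and 6 of 19 at HH20. The part of stage in this split was not tested. HEY2 was detected in 35.1% of the 37 and 14.5% of the 124, EFNB2 in 32.4% and 8.87%, CXCR4 in 32.4% and 4.03%, and JAG2 in 24.3% and 5.65%. SOX17, of the same list, did not share that direction (2.70% and 3.23%). PDGFB, a growth factor that recruits mural cells, was found in 18.9% and 1.61%. Of the venous and lymphatic list, NR2F2 was found in 8.11% and 35.5%, NRP2 in 10.8% and 39.5%, APLNR in 5.41% and 18.5% and FLT4 in 16.2% and 28.2%. STAB2 (21.6% and 16.1%), STAB1 (5.41% and 2.42%) and APLN (5.41% and 5.65%) did not share that direction or were level. TAL1 was in 5.41% and 25.8%. A second split, by STAB2, gave 28 barcodes with and 133 without, at median depths of 2849.5 and 3150 UMIs. STAB2 was held by 17 of 87 barcodes at HH12, 11 of 55 at HH15 and 0 of 19 at HH20. All HH20 barcodes thus lay in the group without, and the part of stage was not tested. FLT4 was then found in 46.4% and 21.1%, NRP2 in 60.7% and 27.1%, LMO2 in 89.3% and 53.4%, and CLDN5 in 50% and 18%. Among arterial genes, EFNB2 (3.57% and 16.5%) and HEY2 (7.14% and 21.8%) had lower shares with STAB2, GJA5 (28.6% and 21.8%) and DLL4 (10.7% and 3.01%) had higher ones, and CXCR4 (10.7% and 10.5%) and JAG2 (10.7% and 9.77%) were level. The splits were made after the values were seen and the barcodes are not replicates, so these shares are a description with no test. The nasal barcodes, with 2 holding GJA5 and 2 holding STAB2, were too few to split.

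Genes of other cell types were mostly lower in the endothelial barcodes than around them. The 11 measured mesenchyme genes summed to 22.7 to 157 CPM in nasal endothelial barcodes against 860 to 1473 CPM in the other nasal barcodes, and to 55.9 to 108 CPM against 346 to 745 CPM in somite tissue. Of 10 tested, 5 were lower in nasal tissue (PRRX1, COL1A1, COL1A2, LUM and DCN) and 6 in somite tissue, where TWIST1 was added. No PRRX1 or COL1A2 UMI was found in the nasal endothelial barcodes, which places them at least 5.57-fold and 5.65-fold below the other nasal barcodes at a floor of 3 counts over the 3 libraries. In somite tissue DCN, a matrix proteoglycan, was lower by the fit (-3.83 ± 0.51), as was COL1A1 (-2.57 ± 0.43). The calls of PRRX1 (-1.38) and TWIST1 (-5.70) there were lost without HH12, and that of LUM without HH15 (-2.50). In the basement membrane and adhesion list, 4 of 18 genes tested were higher in nasal tissue (PECAM1, TM4SF18, AFAP1L1 and CLDN5), 5 were higher in somite tissue with CD9 added, and FN1 (fibronectin) was lower in both. The nasal call of FN1, fitted on 0 UMIs, was lost without HH18 (-6.59) or HH22 (-6.17).

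Mural cells wrap vessels from outside, and their genes could enter with them. The 9 measured mural genes summed to 0 to 48.4 CPM in nasal and 0 to 27.9 CPM in somite endothelial barcodes, against 120 to 143 CPM and 44.6 to 82.1 CPM in the other barcodes. Of 4 tested, TBX2 and ACTA2 were lower in nasal tissue and none passed in somite tissue. The call of ACTA2 was lost without HH15 (-3.23) or HH18 (-3.15), and that of TBX2, fitted on 0 UMIs, without HH18 (-6.71) or HH22 (-6.55). Blood cells were checked with 10 haematopoietic genes. They summed to 199 to 454 CPM in nasal and 263 to 349 CPM in somite endothelial barcodes, almost all of it ARHGDIB, which was higher in both locations (1.63 ± 0.30 and 1.64 ± 0.24). The defining genes were at or near 0, with SPI1 and PTPRC in no endothelial barcode, MYB in 1 and RUNX1 in 1. Genes of red blood cells such as SLC4A1 and H1F0 were lower than in the other barcodes, a call that was lost once haemoglobin-rich barcodes were taken out of the others.

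The surface ectoderm keratins KRT18, KRT19 and KRT7 were lower in somite endothelial barcodes, as were the somite genes NKX3-2, PAX1, PAX3 and MEOX1. NKX3-2 and PAX1 lost this call without HH12 (-2.32 and -0.96), PAX3 without HH12 (-2.91) or HH15 (-1.97), KRT7 without HH12 (-1.12) or HH15 (-1.70), KRT19 without HH15 (-1.55) and PAX1 also without HH20 (-2.73). In nasal tissue the facial crest factors MSX1, ALX4, TFAP2B and ALX1 were lower, and no gene of their list was higher. The calls of MSX1 (-5.97) and ALX1 (-1.69) were lost without HH22, with MSX1 fitted on 0 UMIs. The neural list reached 323 CPM in nasal HH22 and 478 CPM in somite HH20, against 392 and 856 CPM in the other barcodes, and its part in the levels of those 2 sums was not tested. Summed G2/M genes held 0.999, 0.791 and 0.716 of the level of the other barcodes in nasal HH15, HH18 and HH22. In somite HH12, HH15 and HH20 this ratio was 0.978, 0.862 and 0.623. For S-phase genes it was 0.556, 0.921 and 0.910 in nasal and 1.01, 0.886 and 0.652 in somite libraries. Median log2 fold changes of S-phase and G2/M genes were -0.56 and -0.62 in nasal tissue, against -0.55 over all genes. In somite tissue they were -0.20 and -0.29, against -0.12. None of 15 S-phase and 16 G2/M genes tested was called in somite tissue, and MCM2, CENPF and TOP2A were lower in nasal tissue, MCM2 with its call lost without HH15 (-1.66) or HH22 (-1.19) and the other 2 without HH22 (-0.69 and -0.86).

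The brain vessel list, genes of the blood-brain barrier and the Wnt signals that induce it, gave no call in either location for 7 genes tested. SLC2A1, the glucose transporter of that barrier, lay at 16.1 to 28.5 CPM in nasal endothelial barcodes, against 18.1 to 24.3 CPM in the other nasal barcodes. SLC7A5, an amino acid transporter, and APCDD1, a Wnt inhibitor, lay at 270 and 157 CPM in nasal HH18. In the other nasal libraries they lay at 16.1 to 68.2 CPM and at 0 CPM.

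**Figure D4:**
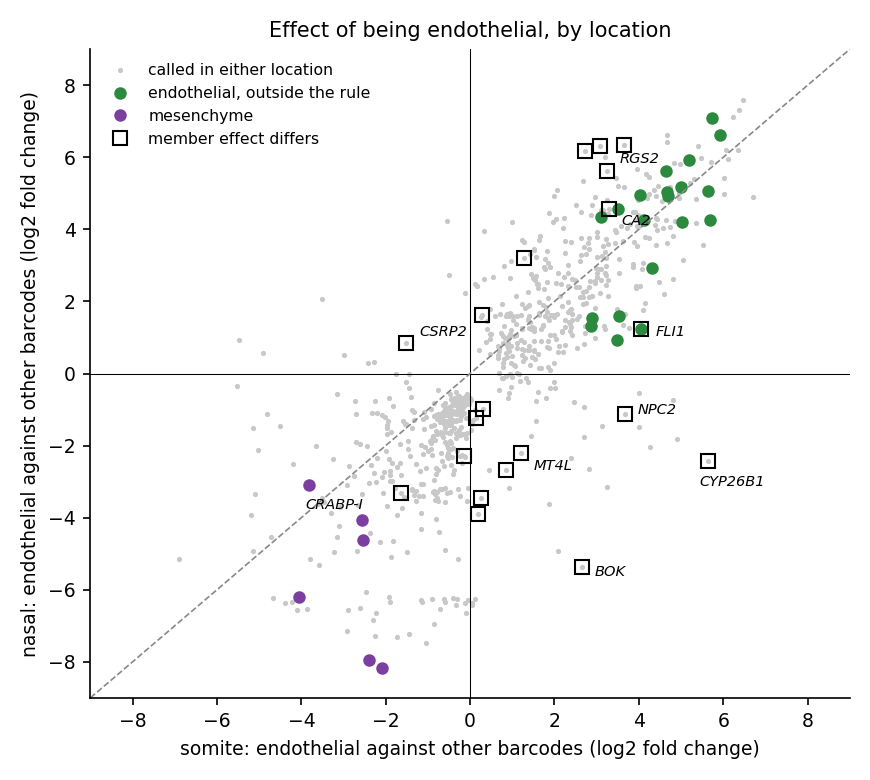
Log2 fold change between endothelial and other barcodes in nasal (vertical) and somite tissue (horizontal) for every gene called in either location. The dashed line marks equal fold changes, green points are endothelial genes outside the rule, purple points are mesenchyme genes and black squares are the 20 genes whose fold change differed between the locations. Endothelial genes lie in the upper right and mesenchyme genes in the lower left.

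Whether the endothelial difference itself depended on location was tested as the nasal fold change minus the somite fold change. This sets each location against its own tissue. The rule genes were left out of the fit, but the rule also decides which barcodes stay among the others. Barcodes with 1 rule gene, which stay there, numbered 208 in nasal and 594 in somite tissue. At least 2 of the 26 endothelial genes outside the rule were held by 10 of these 208 and by 57 of these 594. The part of such barcodes in the differences between locations was not tested. Of 9160 genes, 8 had a larger nasal fold change (0.0873%) and 12 a smaller one (0.131%), the median over all genes being -0.42 (-0.22 with DESeq2 size factors, where the split was 12 to 5). RGS2, a regulator of G protein signalling, lay at 295, 228 and 258 CPM in nasal HH15, HH18 and HH22 and at 39.6, 30.1 and 155 CPM in somite HH12, HH15 and HH20. The other barcodes held 3.32 to 7.64 CPM of it in all 6 libraries. The endothelial CPM levels did not overlap, and the fold changes of 5.62 ± 0.46 and 3.25 ± 0.45 differed by 2.37 ± 0.56 (adjusted p = 0.021). The shares of endothelial barcodes with an RGS2 UMI did overlap. They were 28.6%, 41.7% and 45.5% in nasal HH15, HH18 and HH22, and 11.5%, 9.09% and 47.4% in somite HH12, HH15 and HH20. CA2, a carbonic anhydrase, was the most abundant of the 20, at 1499.8, 1864 and 1130.4 CPM in nasal and 773, 729 and 490.1 CPM in somite tissue, against 36.1 to 112 CPM elsewhere, a difference of 1.28 ± 0.29 (adjusted p = 0.0095). CSRP2, a LIM-domain protein of the actin cytoskeleton, lay at 182, 356 and 113 CPM in nasal tissue and at 14, 18.1 and 83.7 CPM in somite tissue, where it was below the other barcodes (-1.51 ± 0.41), a call lost without HH12 (-0.87) or HH15 (-1.19).

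Genes with a smaller nasal fold change included several that were present in somite endothelial barcodes and had few or no UMIs in nasal ones. NPC2, a cholesterol carrier of lysosomes, lay at 90.8, 199 and 1231 CPM in somite HH12, HH15 and HH20. The exact Poisson intervals (64.5 to 124, 137 to 279 and 1005 to 1493 CPM) did not overlap, but they treat UMIs as independent. An NPC2 UMI was held by 25 of 87, 12 of 55 and 6 of 19 of these barcodes (28.7%, 21.8% and 31.6%). The HH20 level thus rested on 6 barcodes, and the change with stage was not tested. In nasal tissue NPC2 lay at 0, 0 and 16.1 CPM. The difference was -4.80 ± 0.97 (adjusted p = 0.0029). Its call was lost without nasal HH18 (-4.23), without somite HH20 (-3.67) or with DESeq2, which called no gene with a smaller nasal fold change. CYP26B1 (ENSGALG00000016102), an enzyme that breaks down retinoic acid, was found in 28 of 161 somite endothelial barcodes (17.4%), at 46.6, 151 and 35.9 CPM, against 0.780 to 1.25 CPM in the other somite barcodes. No UMI was found in the 49 nasal endothelial barcodes, at least 4.15-fold below somite at a floor of 3 counts over the nasal libraries. By counting error alone, the intervals put HH15 (97.5 to 222 CPM) above HH12 (28.4 to 71.9 CPM). The UMIs came from 12 of 55 and 13 of 87 barcodes (21.8% and 14.9%). CRABP-I, a retinoic acid binding protein, was lower than in the other barcodes in both locations and more so in nasal tissue (-3.30 ± 0.24 against -1.63 ± 0.23). Its endothelial levels overlapped, at 68.2, 512 and 209.9 CPM in nasal and 60.5, 60.2 and 394 CPM in somite tissue, while the other barcodes held 1511 to 2975 CPM in nasal and 133 to 867 CPM in somite tissue. A CRABP-I UMI was found in 55.1% of nasal and 17.4% of somite endothelial barcodes, against 82.9% and 42.8% of the other barcodes. By stage the endothelial shares were 21.4%, 70.8% and 63.6% in nasal HH15, HH18 and HH22. In somite HH12, HH15 and HH20 they were 13.8%, 7.27% and 63.2%.

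FLI1, an ETS factor, was called although its endothelial levels overlapped between the locations, at 45.4, 114 and 32.3 CPM in nasal and 107, 139 and 71.7 CPM in somite tissue. The other barcodes held 17.9 to 29.2 CPM in nasal and 3.79 to 15.8 CPM in somite tissue, and the difference of fold changes was -2.83 ± 0.59 (adjusted p = 0.0029). HSPA5, HSP90B1 and PDIA5, which fold proteins in the endoplasmic reticulum, and RPN1, which glycosylates them, also had smaller nasal fold changes (-1.38, -1.29, -3.53 and -2.14). Each was lower than in the other barcodes by the nasal test and none passed by the somite test. These genes were picked from the 20 called ones, and no list of such genes was counted. CALR and PDIA3, which also fold proteins there, were not among the 20. HSP90B1 ran from 523 CPM at nasal HH15 to 48.4 CPM at HH22, and its difference was -0.79 without HH22. Of the 20 genes, the 19 with a symbol each lost their call under at least 1 alternative setting. Without the library term in the fit no gene was called (615 at an unadjusted p below 0.05). With DESeq2, 10 genes had a larger and 0 a smaller nasal fold change, so every call of a smaller one was lost. The call of RGS2 was lost without any 1 of 5 libraries (1.99 to 2.55), that of CA2 without nasal HH18 (0.83), somite HH15 (0.87) or somite HH20 (1.06), that of CSRP2 without nasal HH18 (1.78), somite HH12 (1.61) or somite HH15 (1.89), that of CYP26B1 without any of 4 libraries (-8.33 to -7.21, values that depend on the prior count as nasal tissue had 0 UMIs) and that of FLI1 without nasal HH22 (-2.39), somite HH12 (-2.55) or somite HH15 (-2.44).

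**Figure D5:**
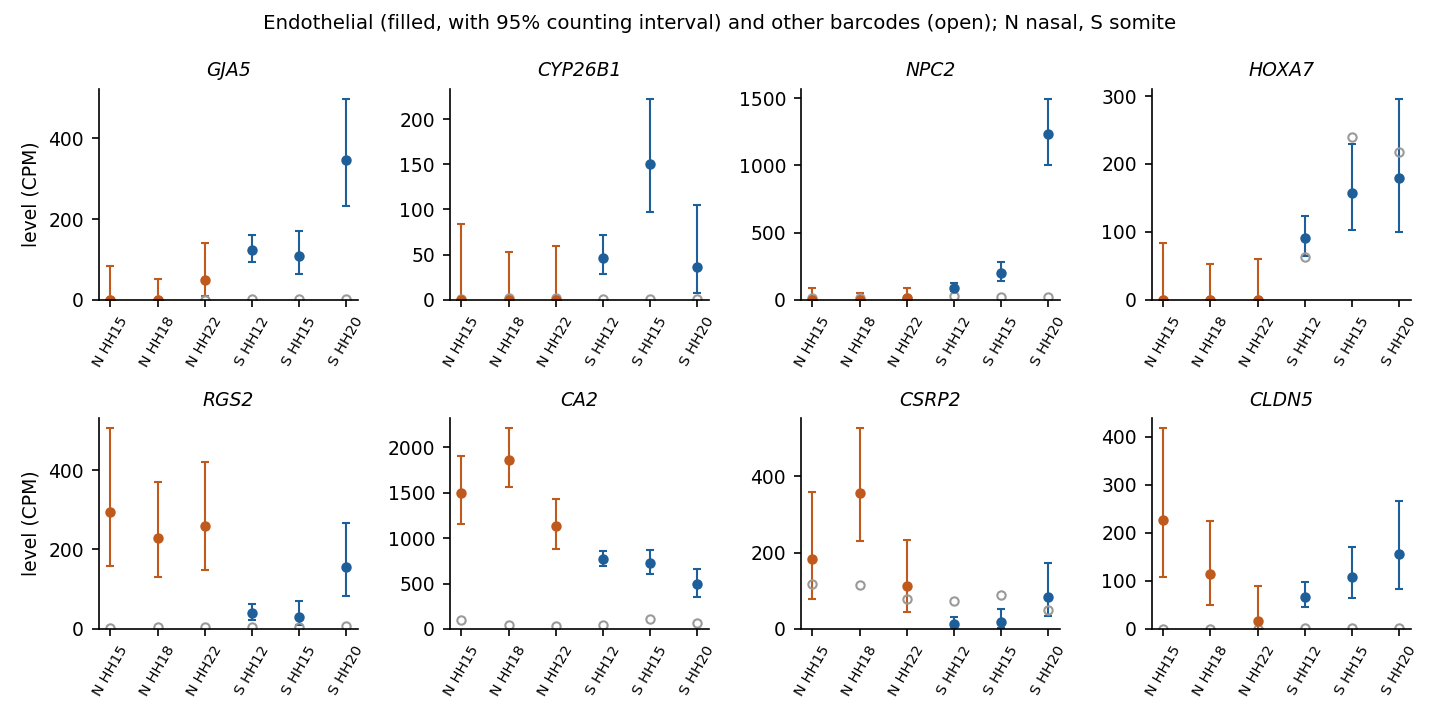
Level in CPM of 8 genes in endothelial barcodes (filled, with 95% exact Poisson counting intervals) and in the other barcodes (open) of each library, N for nasal and S for somite. GJA5, CYP26B1, NPC2 and HOXA7 are higher in the somite libraries, RGS2 and CA2 are higher in the nasal libraries, and CLDN5 spans 16.1 to 227 CPM in nasal tissue.

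HOX genes, which record position along the body axis and are silent in the face and forebrain, separated the locations in endothelial barcodes as they did around them. No UMI of 27 HOX genes was found in the 49 nasal endothelial barcodes (a limit of 6.12% on barcodes with a UMI, not on cells that express a HOX gene), and 29 of the 8957 other nasal barcodes held any. In somite tissue 119 of 161 endothelial barcodes (73.9%) held a HOX UMI, against 84.5% of the other barcodes. Their summed level was 729, 777 and 717 CPM at HH12, HH15 and HH20, against 751, 1231 and 1248 CPM in the other barcodes, a ratio of 0.971, 0.631 and 0.575. In the same libraries the ratio was 0.162, 0.209 and 0.144 for mesenchyme genes, 0.367, 0.448 and 0.772 for sclerotome and dermomyotome genes and 0.824, 0.324 and 0.558 for neural genes, and the part of RNA free in the droplets in the HOX level was not tested. In the haemoglobin-rich barcodes HOX genes held 46.3 CPM of all UMIs at HH15 (53 barcodes) and 89.4 CPM at HH20 (159 barcodes), although 26.4% and 55.3% of these deeper barcodes (median 6969 and 11230 UMIs) held a HOX UMI. On the same base the endothelial barcodes held 775 and 709 CPM. As counts, these were 20 HOX UMIs in 53 and 179 in 159 haemoglobin-rich barcodes, against 129 in 55 and 60 in 19 endothelial barcodes. Haemoglobin UMIs are part of that base, at 20% or more in the haemoglobin-rich barcodes, so the CPM values do not measure free RNA.

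The leading members were HOXA7 at 90.8, 157 and 179 CPM, HOXB7 at 60.5, 108 and 179 CPM and HOXB5 at 109, 90.4 and 59.8 CPM in somite endothelial barcodes. Over the pooled libraries nasal endothelial barcodes lay at least 6.92-fold (HOXA7), 5.10-fold (HOXB7) and 5.79-fold (HOXB5) below these. Of 21 HOX genes tested within somite tissue, HOXD3 and HOXD4 were lower in endothelial than in other barcodes (-1.75 ± 0.56 and -1.44 ± 0.41), and 19 were not called. The call of HOXD3 was lost on leaving out any somite library (-3.31 to -1.54), and that of HOXD4 without HH12 (-1.76) or HH15 (-1.07).

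A direct comparison of the 3 nasal with the 3 somite endothelial sums gave no call. After the count filter 1035 genes were tested and none passed (0%), with 69 at an unadjusted p below 0.05, and DESeq2 called none as well (42 unadjusted). RGS2 (1.93 ± 0.47) and CA2 (1.15 ± 0.24) had adjusted p = 0.22 each, and RGS2 passed once somite HH20 was left out (2.49). With every gene kept, 42 of 10593 were called, 7 higher and 35 lower in nasal tissue. The median log2 fold change over all genes was -0.17 in that fit, against 0.01 with the filter. Nasal endothelial sums held 44007 to 70265 UMIs and somite ones 83656 to 429638. The part of depth in the split of calls was not tested. The lower side included NPC2, HOXA7, HOXB5, HOXB7, HOXB8, OIT3, CYP26B1, MT4L, GJA5 and NRP2 (-2.07 for NRP2, adjusted p = 0.020). The higher side included RGS2, CSRP2 and PCP4. Keeping every gene changed the fit also for genes tested before, RGS2 passing at a smaller fold change (1.76, adjusted p = 0.0034). For 39 of the 42 the mean levels of the other barcodes of the 2 tissues differed in the same direction. This counts signs whatever the size, and the share over all genes was not taken. For HOXB5 the nasal and somite means were 0 and 86.5 CPM in endothelial and 0 and 106 CPM in other barcodes. For FABP5 they were 21.5 and 242 CPM against 83.7 and 85.3 CPM. The exceptions in sign were CYP26B1, RGS2 and MT4L. MT4L, a metallothionein, lay at 0, 28.5 and 16.1 CPM in nasal and 289, 114 and 59.8 CPM in somite endothelial barcodes. In the other barcodes it lay at 59.1 to 88.7 CPM and 57.3 to 74.7 CPM.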

How the data were processed

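Single-cell RNA-seq had been made from 3 frontonasal and 3 somite samples by trypsin dissociation and 10x Chromium 3′ libraries. The authors ran Cell Ranger on GRCg6a with an annotation extended at 3′ ends and deposited raw UMI counts for each gene and barcode. All 17268 barcodes were used, with 16828 genes, 4317 of them known by identifier only. No column belonged to another series, no sequence or coordinate is given, and limb libraries were not analysed here. The result of 1 listed gene is not reported here.

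The rule was applied to each barcode over 7 haemoglobin rows, 1 of them (HBAD) matched by the synonym HBM. The endothelial barcodes and, separately, all other barcodes of a library were summed, and the rule genes and haemoglobin rows were taken out. CPM is UMIs per 1000000 UMIs of such a sum. The 12 sums were fitted with edgeR 4.0.16 (R 4.3.3; quasi-likelihood test, TMM scaling, filterByExpr, prior count 2) with the library as a block and an endothelial effect for each location, and the difference of these effects was tested in the same fit. The 6 endothelial sums were compared between locations without a block. Adjusted p-values are Benjamini-Hochberg over all genes tested, called under 0.05, and ± SE is the fold change divided by the root of F. The block follows from the design, since both sums come from 1 library. The correlation of their deviations was -0.05, 0.24 and 0.12 in nasal and 0.46, 0.38 and 0.37 in somite libraries over 1696 genes.

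The endothelial barcodes and gene lists were chosen with earlier results of these data known. Besides listed genes, up to 10 called genes in each direction were named, those of largest fold change with a symbol, at least 50 CPM in 1 group and the same direction in every library. The p-values measure the spread between libraries, which within a location differ in stage and which the paper describes as independent samples of pooled embryos. Intervals (95%) cover counting error only. Limits for genes at 0 rest on a floor of 3 counts. Doublets were kept and, as an alternative, the highest Scrublet scores (scanpy 1.11.5) were removed in proportion to the barcodes of a library. Other alternatives were DESeq2 1.42.0 and its size factors, no count filter, a stricter rule, the study's filters, thinning, other barcodes of like depth, no block and leaving out each library. Removing haemoglobin-rich barcodes from the others and keeping only endothelial barcodes with a gene outside the rule were added after the data were seen. The fits were tested on simulated data.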

Additional observations from a re-analysis of the deposited data

Results flagged for a closer look

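For 20 genes the fold change between endothelial and other barcodes differed between nasal and somite tissue in the edgeR test of that difference (adjusted p under 0.05). Values are the nasal minus the somite log2 fold change. Larger in nasal tissue were TSPAN18 (3.48), FAM110D (3.24), ENSGALG00000046550 (2.68), RGS2 (2.37), CSRP2 (2.37), ANXA6 (1.91), MYL9 (1.34) and CA2 (1.28). Smaller in nasal tissue were HSP90B1 (-1.29), HSPA5 (-1.38), CRABP-I (-1.67), RPN1 (-2.14), FLI1 (-2.83), MT4L (-3.44), PDIA5 (-3.53), MYLK (-3.72), FAM89A (-4.08), NPC2 (-4.80), BOK (-8.02) and CYP26B1 (-8.06). The values of BOK and CYP26B1 depend on the prior count, as neither had a UMI in nasal endothelial barcodes.

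Endothelial levels behind some of these differences were alike in both locations. TSPAN18, a tetraspanin, lay at 45.4, 99.6 and 32.3 CPM in nasal and 51.2, 48.2 and 12 CPM in somite endothelial barcodes. Its level in the other barcodes was 0 to 0.664 CPM in nasal and 1.87 to 10.3 CPM in somite tissue. FAM110D likewise lay at 136, 56.9 and 129 CPM and at 147, 84.3 and 83.7 CPM, with the other barcodes at 0.570 to 0.775 CPM and 3.28 to 22.8 CPM. For both genes it was thus the other barcodes whose levels did not overlap. BOK, a BCL2-family gene, lay at 58.2, 36.1 and 47.8 CPM in somite endothelial barcodes against 6.24 to 8.69 CPM around them, and nasal endothelial barcodes were at least 3.03-fold below somite ones at a floor of 3 counts over the 3 libraries.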

How the results depend on the processing

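Nasal calls numbered 503 and somite calls 522. Leaving out 1 library gave 329 to 612 nasal and 275 to 629 somite calls, the lowest without nasal HH18 and somite HH12. Somite calls fell to 327 with DESeq2 and 305 without the replicate block, where nasal calls were 336. The 20 genes that differed between locations became 10 with DESeq2, 11 without a count filter, 1 (NPC2) with 3 or more rule genes, 32 under the study's filters, 13 without the highest doublet scores, 30 with other barcodes of like depth, 0 without the replicate block, and 4 to 23 on leaving out 1 library. The direct comparison gave 42 calls without a count filter, 1 with sums thinned to equal depth and 0 to 1 on leaving out 1 library. The cause was not tested. Calls split 335 higher to 70 lower (nasal), 281 to 46 (somite) and 10 to 0 (difference) with DESeq2.

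Of the named or listed genes called in the main fits, 46 of 86 nasal, 56 of 97 somite and 0 of 19 difference calls held under every alternative run. The fitted sign changed for GJA5 in nasal tissue without HH22 (-0.26, against up to 5.45 without 1 other library) and STAB1 in somite tissue without HH12 (-0.71, against up to 3.93). Both values were fitted on 0 endothelial UMIs and depend on the prior count, so they show no reversal. Without haemoglobin-rich other barcodes, direction reversed for SLC4A1 (0.31) and TSPO2 (1.0) in nasal and H1F0 (0.13) in somite tissue. The difference in share kept its sign throughout, at -0.467 to -1.23 percentage points under other rules and filters and -0.776 to -1.63 on leaving out 1 library (exact permutation p = 0.2, the smallest 2 against 3 allow). Depth was lowest in nasal tissue, where the endothelial sums held 44007 to 70265 UMIs, so that 1 UMI is 14.2 to 22.7 CPM.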
